A study of Mus musculus with 20 samples.

Results

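The antiviral interferon-stimulated genes are a set of 39 listed genes, of which 38 were measured in this study of mouse liver. A gene belongs to the set if its symbol is on the list and the platform annotation gives it a row, and no symbol had over 1 row. Ifi44 is not analysed here. The 38 members stand among 22206 transcript clusters, the array's units of gene expression. The members and the lists used below were chosen with earlier results of these data known.

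Liver RNA of 20 adult C57BL/6NCr males, aged 4 to 5 months, was measured on Affymetrix arrays, with 1 for each animal. These form 4 groups of 5, named here by the ambient temperature of their dams during pregnancy, 10, 18, 23 or 30 °C. Per the labels, dams spent 2 weeks (10 °C and 18 °C groups) or 3 weeks (30 °C group) at that temperature ahead of mating, and sires 3 days. The control pairs lived at 23 °C, the usual temperature of the animal house. From the day of delivery every litter was housed at 23 °C on standard chow, so the groups differ in temperature only up to birth, and neither genotype nor a drug separates them. The labels name no litter, dam, infection status or batch. Littermates may therefore be counted as separate mice. The p-values set differences between groups against the spread between arrays, not between litters or dams, and may then be too small.

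Values are log2 expression deposited after RMA, a method that corrects background, equalises the arrays' distributions and summarises probes. Array medians lay between 4.39 and 4.46, and the correlation between any pair of arrays was between 0.987 and 0.993. All 8 hepatocyte markers were far above background, with list means of 18.47 to 18.68 over the 20 arrays. A total of 28 members had means above the negative control rows, whose array means ran up to 4.75. Oas1a, Oas1g, Oas2, Oas3 and Oasl1 had means under 3.90, the 95th percentile of 1091 olfactory receptor clusters, and are not above background. Isg15, Ifit2, Mx1, Zbp1 and Trim30a lay between both bounds and may not be above it. Levels of different members cannot be set against each other on this array.

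Type I interferons are secreted when cells sense viral nucleic acid. They bind a receptor of paired chains, Ifnar1 and Ifnar2, whose kinases Jak1 and Tyk2 activate Stat2. With Irf9 it works in a complex that binds the interferon-stimulated response element in promoters and switches on many genes. Their products sense viral RNA, degrade it, block its translation or trap new virions, and a low tonic interferon signal keeps them at a basal level in uninfected tissue. In liver, hepatocytes, Kupffer cells and endothelial cells all respond to interferon.

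The response element was searched in the promoters because members that share it may be read out together. Its core is written GAAANNGAAA, or TTTCNNTTTC on the opposite strand, and overlapping matches were counted separately. The window ran from 250 bases before to 50 after the annotated start, in RefSeq sequences of GRCm38.p6. Of the 28 members with an entry, 13 held a match (46.4%), against 3.99% of 27025 genes. The stretches below end before the start of the transcript and show the core matches in capitals, read 5′ to 3′ on the strand of the gene. Ifit1, Oas1a and Stat2 are members given with all arrays below that hold a match before the start. Ifit3 and Isg15 were added after their values were seen, as the neighbour of Ifit1 and as the member with the most matches.
Ifit1 (chr19:34640779-34640838, plus strand): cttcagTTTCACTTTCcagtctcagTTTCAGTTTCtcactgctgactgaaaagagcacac
Oas1a (chr5:120907526-120907564, minus strand): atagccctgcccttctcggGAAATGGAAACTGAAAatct
Stat2 (chr10:128270251-128270310, plus strand): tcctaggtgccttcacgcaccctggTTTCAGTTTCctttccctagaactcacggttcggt
Ifit3 (chr19:34583382-34583441, plus strand): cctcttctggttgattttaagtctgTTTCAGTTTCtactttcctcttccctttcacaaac
Isg15 (chr4:156200850-156200909, minus strand): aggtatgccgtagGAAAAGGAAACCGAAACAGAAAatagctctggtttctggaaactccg
Ifit1 and Ifit3 carry the core on the opposite strand, with 2 matches each, and Isg15 carries 3 overlapping matches on its own strand. Of the 2 Ifit3 matches only the nearer is in the printed stretch. A match is a likeness of letters and says nothing of what binds there. Only exact matches were counted, so a member without one may still hold an element that deviates from the core or lies outside the window.

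**Figure D1:**
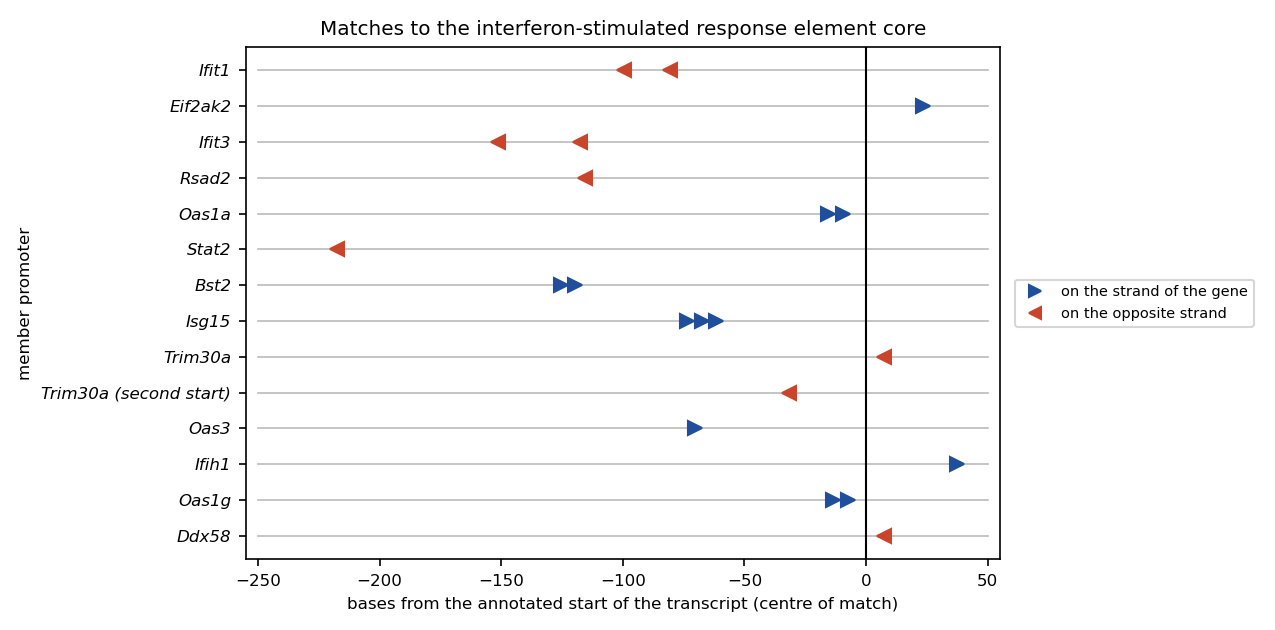
Positions of core matches in the 14 member promoters that hold one, as bases from the annotated start (x axis; the line at 0 is the start), with blue arrows for the strand of the gene and red for the opposite one. Promoters are ordered by the 4-group p of the member, and the Ifit1 match nearest to the start lies 85 to 76 bases before it.

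No member passed the test in any comparison. The limma fit over all 22206 clusters called 0 of 38 members at an adjusted p of 0.05 in each of the 6 pairwise comparisons, in the 4-group F-test and for a slope on temperature. Over all clusters it called 0.00901% between 10 °C and 23 °C offspring and 0% in the other 7 tests. At an unadjusted p under 0.05 the F-test had 7 members, where 9.86% of clusters reached it. The 7 were Ifit1, Lgals3bp, Rtp4, Irf7, Usp18, Samd9l and Oasl1. The values below are therefore a description of levels, except where a test is given.

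The members had their highest mean in a cold group, and their lowest in a warmer one, more often than other clusters. The highest of the 4 means was in 10 °C or 18 °C offspring for 33 of 38 members, while 52.9% of all clusters had theirs there. The lowest was in 30 °C offspring for 20 members, against 22.9% of all clusters. For 20 members the highest mean was that of 18 °C offspring, for 13 that of 10 °C, for 4 that of 23 °C and for 1, Ifi27, that of 30 °C. Members that respond to a common signal are not independent of each other, so these shares carry no test.

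Averaged over the 38 members, each array's deviation from the members' own means was small. It was 0.148, 0.056, 0.156, 0.005 and 0.029 in 10 °C offspring and 0.102, -0.017, 0.216, 0.161 and 0.126 in 18 °C offspring, by animal number from lowest to highest. It was -0.073, -0.135, 0.029, 0.050 and -0.178 in 23 °C and -0.057, -0.372, -0.025, -0.115 and -0.107 in 30 °C offspring. All 5 arrays of the 10 °C group were above 0 and all 5 of the 30 °C group below it, and neither cold group overlapped with 30 °C offspring, while 23 °C offspring overlapped with each of the other groups. The gap between 18 °C and 30 °C offspring was narrow, from -0.017 to -0.025. Animal 5 of the 30 °C group stood apart at -0.372, and was the lowest of all 20 arrays in 9 of 38 members. Animal 4 of the 18 °C group was the highest at 0.216 and led in 6 members.

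**Figure D2:**
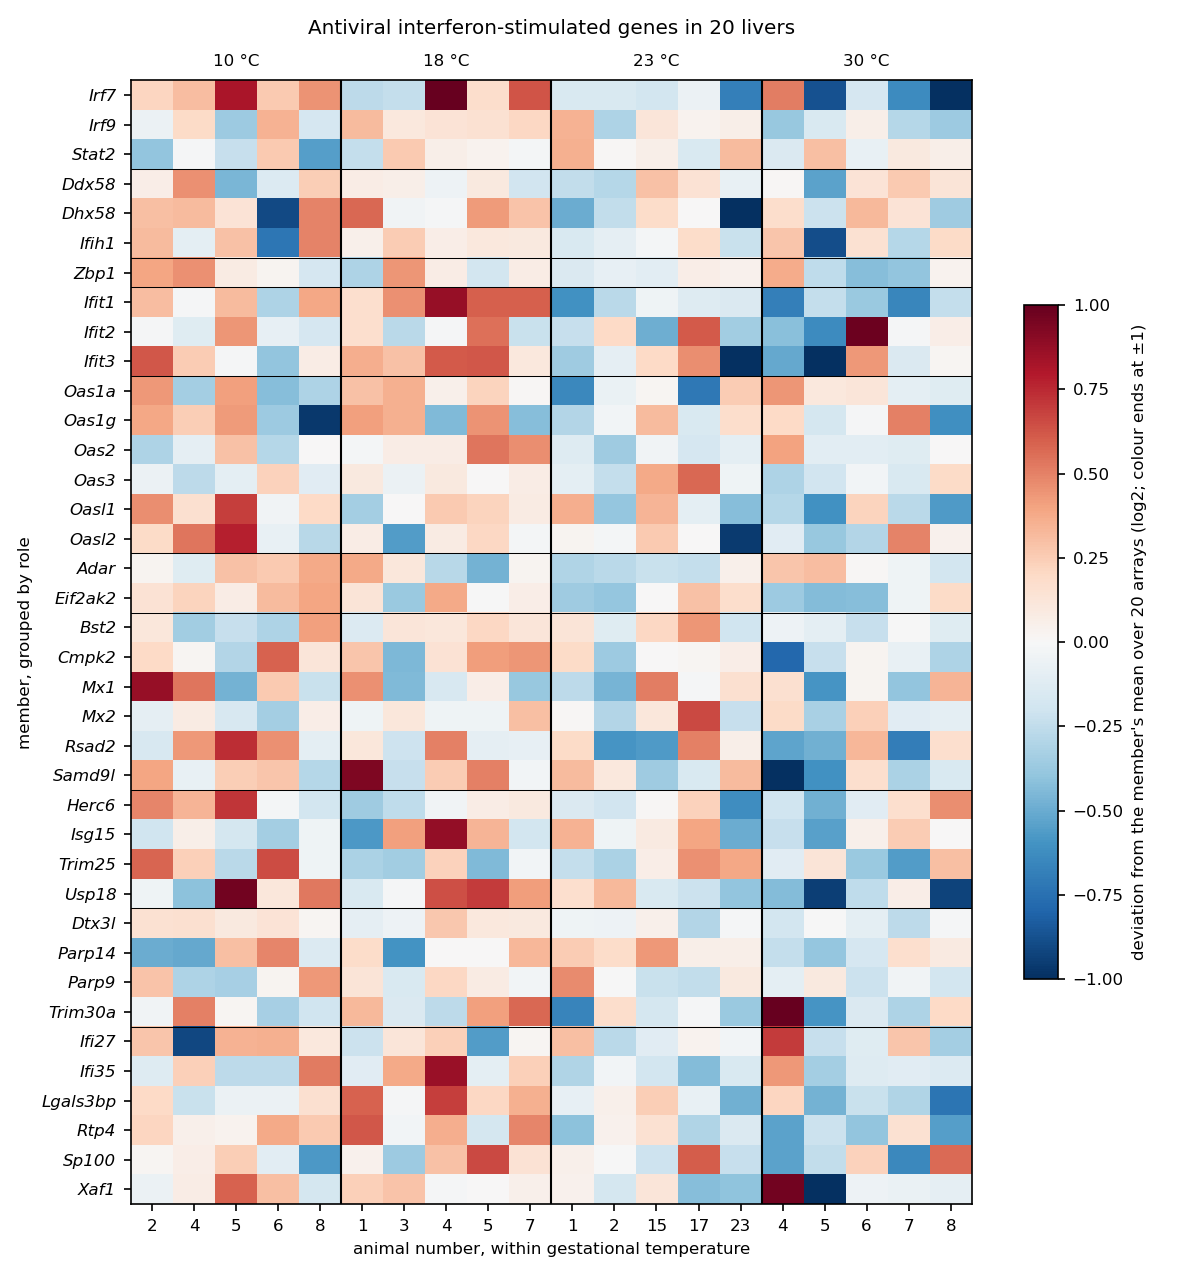
Deviation of each of the 38 members from its own mean over 20 arrays (colour, log2), by animal (columns) and by role (rows, separated by lines). Red predominates in 10 °C and 18 °C offspring and blue in 30 °C offspring, with animal 5 of the 30 °C group lowest in 9 members.

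Other measures of the arrays also differed between the groups, some in the members' direction and some against it. Kupffer cell and macrophage markers, of which 9 of 10 were measured and all 9 were above background, averaged 7.70 ± 0.21 in 10 °C and 7.71 ± 0.37 in 18 °C offspring (SD, n = 5). They averaged 7.37 ± 0.36 in 23 °C and 7.35 ± 0.33 in 30 °C offspring, with array ranges of 7.50 to 8.04, 7.37 to 8.16, 6.84 to 7.75 and 7.07 to 7.92. Against 23 °C offspring, 8 of the 9 had a higher mean in the 10 °C group and 8 in the 18 °C group, with 0 passing limma. Their medians were 0.345 and 0.264. At an unadjusted p under 0.05 were 1 and 2 of them, against 11.6% and 9.25% of all clusters. Against 30 °C offspring 8 were higher in each cold group, at medians of 0.414 and 0.353, with 0 passing limma. Here 2 and 1 were at an unadjusted p under 0.05, against 6.76% and 8.21% of all clusters. The members' medians were smaller in all of these comparisons, at 0.169 and 0.124 against 23 °C and 0.190 and 0.194 against 30 °C offspring. Of 8 hepatocyte markers, 7 had a lower mean in the 10 °C group and 8 in the 18 °C group than in 23 °C offspring, at medians of -0.034 and -0.049, and 7 in each than in 30 °C offspring. None of these 8 reached an unadjusted p under 0.05 in these comparisons, for which the shares of all clusters are given above. Alb, Ttr, Apoa1 and Serpina1a had means of 19.89, 19.88, 19.87 and 19.79. The highest value of any row was 19.93, so differences in these markers may not show. The 23 background control rows had means of 3.71 ± 0.02, 3.71 ± 0.04, 3.65 ± 0.02 and 3.66 ± 0.06 from 10 °C to 30 °C offspring (SD, n = 5). The 5222 negative control rows ran the other way, with means of 4.53 ± 0.03, 4.49 ± 0.07, 4.63 ± 0.09 and 4.59 ± 0.06. Once the 23 background rows entered the fit as a covariate, the members' median difference was 0.089 instead of 0.169 for 10 °C against 23 °C, and 0.159 instead of 0.124 for 18 °C. The part of the macrophage markers, the hepatocyte markers and the negative control rows in the members' differences was not tested. In a whole liver sample more cells of a type and more RNA per cell cannot be told apart. Plasmacytoid dendritic cell markers, of a cell known for its interferon output, had 5 of 6 not above the negative control rows, Siglech and Ccr9 among them, as had 5 of 5 monocyte and neutrophil and 7 of 8 lymphocyte markers.

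**Figure D3:**
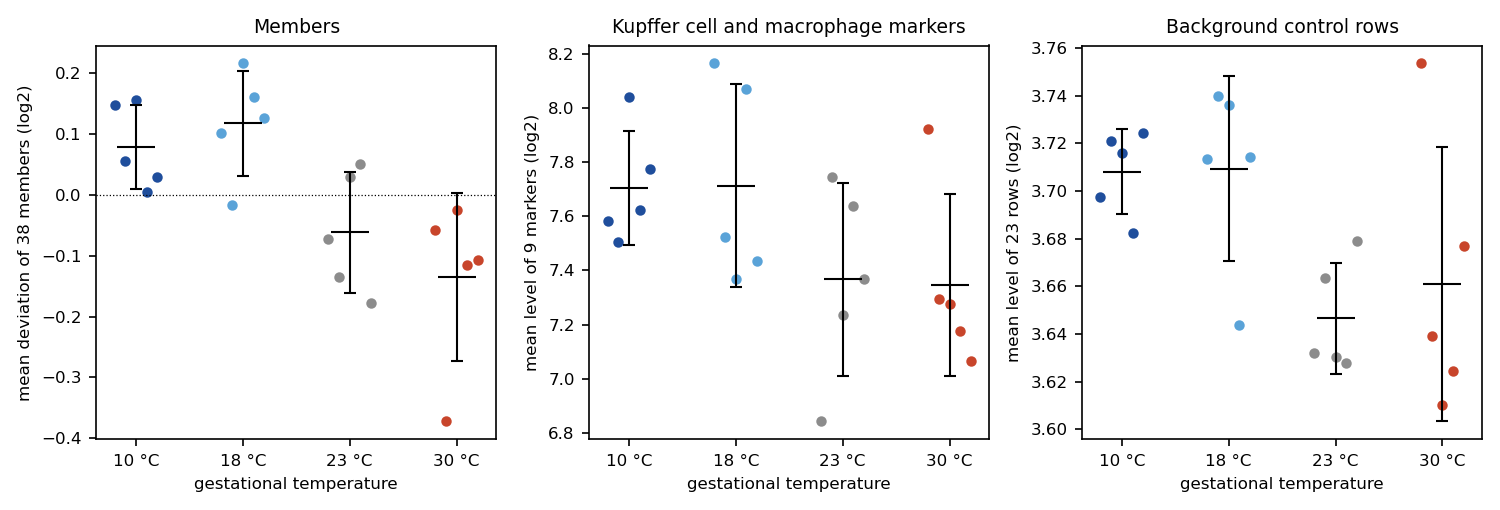
Per array and gestational temperature (x axes), the mean deviation of the 38 members, the mean level of 9 Kupffer cell and macrophage markers, and the mean level of 23 background control rows (y axes, log2). Points are arrays, lines the group mean and bars the SD (n = 5), and animal 4 of the 30 °C group is highest of its group in both right panels at 7.92 and 3.75 but not in the left one.

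Values of single members are given below in order of animal number. These numbers are 2, 4, 5, 6 and 8 in the 10 °C group, 1, 3, 4, 5 and 7 in the 18 °C group, 1, 2, 15, 17 and 23 in the 23 °C group and 4 to 8 in the 30 °C group. A total of 17 members are given array by array by the rule for named genes, and the others by group means.

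Among the transcription factors, Irf7 and Irf9 had their lowest mean in 30 °C offspring and Stat2 in 10 °C offspring. Irf7, the factor that amplifies interferon production, was at log2 8.49, 8.58, 9.09, 8.53 and 8.72 in 10 °C offspring and at 8.01, 8.03, 9.33, 8.45 and 8.90 in 18 °C offspring. It was at 8.12, 8.12, 8.09, 8.21 and 7.59 in 23 °C and at 8.78, 7.40, 8.10, 7.64 and 7.25 in 30 °C offspring. Every 10 °C value lay above every 23 °C value. In 18 °C and in 30 °C offspring the values were widely spread, with animal 4 at the top of each group, and animal 23 lay below the other controls. Irf7 was higher by 0.66 ± 0.26 in 10 °C than in 23 °C offspring (SE, n = 5 per group, limma adjusted p = 0.328) and by 0.85 ± 0.26 than in 30 °C offspring (0.662), without passing the test. Its 18 °C mean was 0.52 ± 0.26 above that of 23 °C (limma adjusted p = 0.561) and 0.71 ± 0.26 above that of 30 °C offspring (0.479).

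Irf9, the DNA-binding partner of Stat2, had log2 values of 6.58, 6.83, 6.28, 6.99 and 6.47 in 10 °C and of 6.96, 6.75, 6.78, 6.79 and 6.85 in 18 °C offspring. In 23 °C offspring they were 6.99, 6.33, 6.76, 6.68 and 6.70, and in 30 °C offspring 6.26, 6.49, 6.70, 6.36 and 6.28. The 18 °C values were the least spread and did not overlap with those of 30 °C offspring, while the 10 °C and 23 °C values ran across both ranges. The difference between 18 °C and 30 °C was 0.41 ± 0.15 (SE, limma adjusted p = 0.472), and that between 30 °C and 23 °C was -0.27 ± 0.15 (0.978). Stat2, a signal transducer of the type I receptor, measured log2 10.01, 10.39, 10.17, 10.66 and 9.85 in the 10 °C group and 10.16, 10.66, 10.46, 10.44 and 10.38 in the 18 °C group. The controls measured 10.76, 10.41, 10.46, 10.25 and 10.72, and the 30 °C group 10.26, 10.70, 10.33, 10.50 and 10.46. Its lowest values were those of 10 °C animals 8 and 2, and all groups overlapped. Stat2 differed by -0.30 ± 0.15 between 10 °C and 23 °C offspring (SE, limma adjusted p = 0.45) and by -0.23 ± 0.15 between 10 °C and 30 °C (0.826).

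The sensors of viral nucleic acid differed little between the groups, apart from Dhx58. Ddx58, known as RIG-I, which detects RNA with a triphosphate end, had group means of 9.18, 9.14, 9.11 and 9.15 from 10 °C to 30 °C offspring. Ifih1, known as MDA5, which detects long double-stranded RNA, had 10.37, 10.43, 10.25 and 10.20, and 30 °C animal 5 at 9.43 was its lowest value. Dhx58, known as LGP2, a relative that modulates the other two, stood at 5.96 ± 0.56, 6.14 ± 0.27, 5.56 ± 0.51 and 5.91 ± 0.28 (SD, n = 5). Its difference of 0.58 ± 0.25 between 18 °C and 23 °C offspring did not pass (SE, limma adjusted p = 0.489). Zbp1, a sensor of left-handed nucleic acid, had means of 4.64, 4.496, 4.43 and 4.34, within the range of dim clusters.

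Ifit1 had the smallest p of the 38 members in the 4-group test and was highest in 18 °C offspring. The Ifit proteins bind viral RNA, and Ifit1 holds back the translation of RNA whose cap lacks the host's methylation. Ifit1 was at log2 5.70, 5.38, 5.71, 5.08 and 5.78 in 10 °C offspring and at 5.56, 5.85, 6.26, 5.99 and 5.99 in 18 °C offspring. It was at 4.79, 5.12, 5.35, 5.26 and 5.25 in 23 °C and at 4.71, 5.15, 5.02, 4.74 and 5.15 in 30 °C offspring. All 18 °C values lay above all 23 °C and all 30 °C values, and the 10 °C values ran from the level of the controls into that of the 18 °C group. The means from 10 °C to 30 °C offspring were 5.53 ± 0.30, 5.93 ± 0.25, 5.15 ± 0.22 and 4.95 ± 0.22 (SD, n = 5). Values of 30 °C animals 4 and 7, 4.71 and 4.74, lay under 4.75, the bound of the negative control rows, and 23 °C animal 1 just above it. Part of the lower side is thus not clearly above background.

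The difference of Ifit1 between 18 °C and 30 °C offspring was 0.98 ± 0.16 (SE, 1.97-fold, limma adjusted p = 0.0652). It passed when dim clusters were left out, by the olfactory bound (adjusted p = 0.0442) or by the negative control rows (0.0323). It also passed without 10 °C animal 6 (0.025) or 18 °C animal 1 (0.0474), and in no other setting tried. Against 23 °C offspring the 18 °C mean was 0.78 ± 0.16 higher (1.71-fold, limma adjusted p = 0.21), and against 10 °C offspring 0.40 ± 0.16 higher (0.555). The 10 °C mean was 0.38 ± 0.16 above that of 23 °C (limma adjusted p = 0.376) and 0.58 ± 0.16 above that of 30 °C offspring (0.662). Over the 4 groups the limma adjusted p was 0.117.

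Ifit3, which binds and stabilises Ifit1 in human cells, had the same order of means with a wider spread. They were 8.36 ± 0.37, 8.66 ± 0.22, 8.08 ± 0.61 and 7.93 ± 0.71 from 10 °C to 30 °C offspring (SD, n = 5). Its lowest values were 6.83 in 30 °C animal 5 and 7.14 in 23 °C animal 23. The difference between 18 °C and 30 °C was 0.72 ± 0.29 (SE, limma adjusted p = 0.528). Ifit3 had the widest spread within groups of all members, an SD of 0.513, where that of Ifit1 was 0.249 and the median over all clusters 0.292. Ifit2, a neighbour of both on chromosome 19, had means of 3.97, 4.01, 3.91 and 3.96 and may not be above background.

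**Figure D4:**
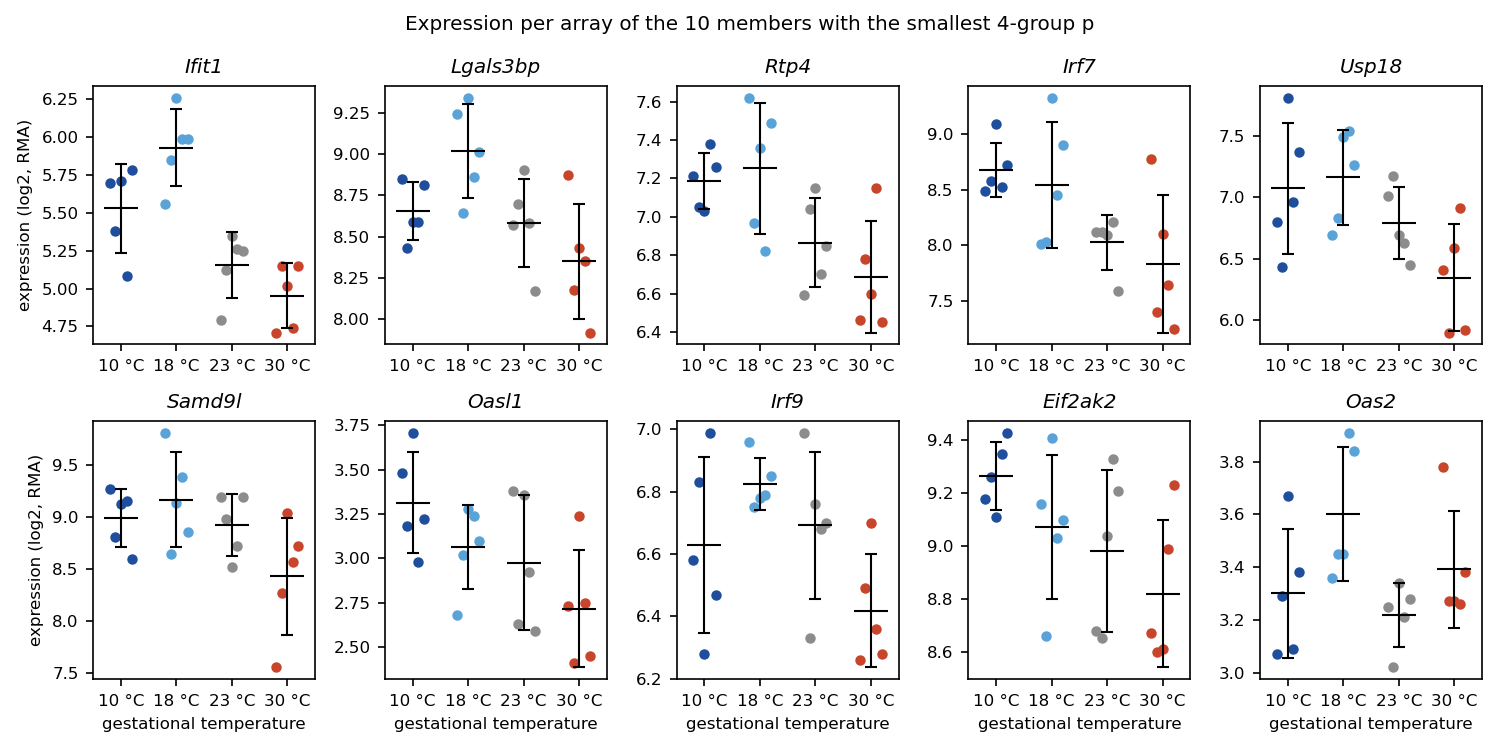
Expression (y axes, log2 after RMA) of the 10 members with the smallest 4-group p, by gestational temperature (x axes). Points are arrays, lines group means and bars the SD (n = 5), and the Ifit1 values of 18 °C offspring, 5.56 to 6.26, do not overlap with those of 23 °C or 30 °C offspring.

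The oligoadenylate synthetases, whose product activates RNase L, were mostly dim. Oasl2, a synthetase-like protein, was the 1 gene of this family above background, with means of 5.53, 5.25, 5.16 and 5.25 from 10 °C to 30 °C offspring. Oasl1, a like protein that restrains the translation of Irf7 in mice, had log2 values of 3.48, 3.18, 3.71, 2.98 and 3.22 in 10 °C and of 2.68, 3.02, 3.28, 3.24 and 3.10 in 18 °C offspring. In 23 °C offspring they were 3.38, 2.63, 3.36, 2.92 and 2.59, and in 30 °C offspring 2.73, 2.41, 3.24, 2.75 and 2.45. The 10 °C group had the highest mean and the 30 °C group the lowest, and both overlapped. The difference between them was 0.60 ± 0.19 (SE, limma adjusted p = 0.662), at a level that is not above background.

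Oas2, a synthetase, measured log2 3.07, 3.29, 3.67, 3.09 and 3.38 in the 10 °C group and 3.36, 3.45, 3.45, 3.91 and 3.84 in the 18 °C group. The controls measured 3.25, 3.02, 3.34, 3.21 and 3.28, and the 30 °C group 3.78, 3.27, 3.27, 3.26 and 3.38. The lowest 18 °C value, 3.36, was just above the highest control value, 3.34, and 30 °C animal 4 stood above the rest of its group. The difference between 18 °C and 23 °C offspring was 0.38 ± 0.15 (SE, limma adjusted p = 0.47). Oas1a, another synthetase, was at log2 3.97, 3.20, 3.95, 3.11 and 3.23 in 10 °C offspring and at 3.83, 3.89, 3.59, 3.76 and 3.55 in 18 °C offspring. It was at 2.89, 3.47, 3.56, 2.82 and 3.79 in 23 °C and at 3.98, 3.64, 3.66, 3.44 and 3.42 in 30 °C offspring. The lowest values were those of 23 °C animals 17 and 1, and all groups overlapped. Oas1a was higher by 0.32 ± 0.20 in 30 °C than in 23 °C offspring (SE, limma adjusted p = 0.978) and differed by -0.14 ± 0.20 between 10 °C and 30 °C (0.941). Oas1g and Oas3 had group means of 3.77, 3.89, 3.83 and 3.81 and of 2.33, 2.43, 2.50 and 2.29. Oas1a and Oas1g are close paralogs, and probes may not tell them apart.

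Both enzymes that act on double-stranded RNA, Eif2ak2 and Adar, had their highest mean in 10 °C offspring. Eif2ak2, the kinase PKR that halts translation, had log2 values of 9.18, 9.26, 9.11, 9.35 and 9.43 in 10 °C and of 9.16, 8.66, 9.41, 9.03 and 9.10 in 18 °C offspring. In 23 °C offspring they were 8.68, 8.65, 9.04, 9.33 and 9.21, and in 30 °C offspring 8.67, 8.60, 8.61, 8.99 and 9.23. The 10 °C values lay close together from 9.11 to 9.43, and 3 of 5 values in 30 °C offspring were at or under 8.67. The difference between these groups was 0.45 ± 0.17 (SE, limma adjusted p = 0.683), and the ranges overlapped through 30 °C animal 8. Adar, which converts adenosine to inosine and so marks RNA as self, measured log2 8.62, 8.47, 8.88, 8.85 and 8.97 in the 10 °C group and 8.97, 8.70, 8.31, 8.12 and 8.62 in the 18 °C group. The controls measured 8.29, 8.32, 8.37, 8.35 and 8.64, and the 30 °C group 8.87, 8.90, 8.60, 8.55 and 8.41. Of the controls, 4 lay between 8.29 and 8.37, and animal 23 was at 8.64. The difference from 23 °C was 0.36 ± 0.16 in 10 °C (SE, limma adjusted p = 0.372) and 0.27 ± 0.16 in 30 °C offspring (0.978). Between 18 °C and 30 °C it was -0.12 ± 0.16 (limma adjusted p = 0.888).

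Of the other effectors, Samd9l, Rsad2, Cmpk2 and Bst2 had their lowest mean in 30 °C offspring, and Mx2 in 10 °C offspring. Samd9l, a restriction factor that shuts down translation, was at log2 9.27, 8.80, 9.12, 9.15 and 8.59 in 10 °C offspring and at 9.81, 8.64, 9.13, 9.38 and 8.85 in 18 °C offspring. It was at 9.19, 8.98, 8.52, 8.72 and 9.19 in 23 °C and at 7.55, 8.27, 9.04, 8.56 and 8.72 in 30 °C offspring. The lowest values were those of 30 °C animals 4 and 5, and 18 °C animal 1 was highest. Samd9l was higher by 0.74 ± 0.24 in 18 °C than in 30 °C offspring (SE, limma adjusted p = 0.433), and differed by -0.49 ± 0.24 between 30 °C and 23 °C (0.978). Rsad2, known as viperin, which makes a chain-terminating nucleotide, was higher by 0.51 ± 0.24 in 10 °C than in 30 °C offspring (SE, limma adjusted p = 0.725). Its neighbour Cmpk2, a mitochondrial nucleotide kinase, was higher by 0.40 ± 0.19 (limma adjusted p = 0.725). Bst2, or tetherin, which holds budding virions at the cell surface, had means of 12.05, 12.20, 12.21 and 12.02. The GTPases Mx1 and Mx2 had group means of 4.71, 4.42, 4.497 and 4.42 and of 6.98, 7.13, 7.12 and 7.05, and the Mx1 protein is known to be defective in most inbred mouse strains.

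In the Isg15 system, which attaches a ubiquitin-like protein to others, the modifier itself was dim and its protease was not. Usp18, which removes Isg15 and damps signalling at the interferon receptor, had log2 values of 6.80, 6.43, 7.81, 6.96 and 7.37 in 10 °C and of 6.69, 6.83, 7.49, 7.54 and 7.26 in 18 °C offspring. In 23 °C offspring they were 7.01, 7.17, 6.69, 6.63 and 6.45, and in 30 °C offspring 6.41, 5.90, 6.59, 6.91 and 5.92. The highest values were in 10 °C animal 5 and 18 °C animals 5 and 4, the lowest in 30 °C animals 5 and 8, and all groups overlapped. Usp18 was higher by 0.82 ± 0.24 in 18 °C (SE, limma adjusted p = 0.398) and by 0.73 ± 0.24 in 10 °C (0.673) than in 30 °C offspring. Isg15 had means of 4.24, 4.56, 4.44 and 4.29 from 10 °C to 30 °C, with 5.26 in 18 °C animal 4, and its promoter holds the 3 matches shown above.

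Herc6, the main ligase for Isg15 in mice, measured log2 8.97, 8.82, 9.20, 8.46 and 8.30 in the 10 °C group and 8.13, 8.23, 8.45, 8.56 and 8.58 in the 18 °C group. The controls measured 8.34, 8.29, 8.49, 8.71 and 7.86, and the 30 °C group 8.28, 7.997, 8.37, 8.65 and 8.95. The highest values were those of 10 °C animals 5 and 2 and 30 °C animal 8. The difference between 18 °C and 10 °C was -0.36 ± 0.19 (SE, limma adjusted p = 0.67). Trim25, a ubiquitin ligase that activates Ddx58, was at log2 10.35, 10.01, 9.50, 10.42 and 9.73 in 10 °C offspring and at 9.45, 9.42, 10.004, 9.33 and 9.74 in 18 °C offspring. It was at 9.53, 9.45, 9.84, 10.23 and 10.16 in 23 °C and at 9.66, 9.90, 9.40, 9.21 and 10.07 in 30 °C offspring. Animals 6 and 2 of the 10 °C group were highest, and all groups overlapped. Trim25 differed by -0.41 ± 0.21 between 18 °C and 10 °C (SE, limma adjusted p = 0.633) and by -0.25 ± 0.21 between 18 °C and 23 °C offspring (0.757).

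Among the enzymes of ubiquitin and ADP-ribose, Dtx3l was the least spread of all members. Dtx3l, a ubiquitin ligase that works as a pair with Parp9, had an SD within groups of 0.116. Its means were 8.10 ± 0.06, 8.06 ± 0.14, 7.93 ± 0.13 and 7.88 ± 0.11 from 10 °C to 30 °C offspring (SD, n = 5). The 10 °C and 30 °C values did not overlap, at a difference of 0.22 ± 0.11 (SE, limma adjusted p = 0.752). Parp9 had means of 8.28, 8.30, 8.27 and 8.17, and Trim30a, which may not be above background, of 4.64, 4.83, 4.44 and 4.69.

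Parp14, an ADP-ribosyltransferase, had log2 values of 6.32, 6.31, 7.12, 7.31 and 6.68 in 10 °C and of 7.002, 6.22, 6.82, 6.82 and 7.15 in 18 °C offspring. In 23 °C offspring they were 7.07, 6.997, 7.25, 6.88 and 6.88, and in 30 °C offspring 6.58, 6.43, 6.65, 6.99 and 6.91. The controls lay between 6.88 and 7.25, within the range of 10 °C offspring. Parp14, Stat2 and Bst2 were the members above background with their highest mean in 23 °C offspring. Parp14 differed by -0.27 ± 0.19 between 10 °C and 23 °C (SE, limma adjusted p = 0.631) and by -0.21 ± 0.19 between 18 °C and 23 °C offspring (0.792).

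Of the remaining members, Lgals3bp and Rtp4 came next to Ifit1 in the 4-group test. Lgals3bp, a secreted glycoprotein that binds galectin, measured log2 8.85, 8.43, 8.59, 8.59 and 8.81 in the 10 °C group and 9.24, 8.64, 9.34, 8.86 and 9.01 in the 18 °C group. The controls measured 8.57, 8.70, 8.90, 8.58 and 8.17, and the 30 °C group 8.87, 8.18, 8.43, 8.35 and 7.92. The highest values were those of 18 °C animals 4 and 1 and the lowest that of 30 °C animal 8, and 30 °C animal 4 was level with the 18 °C group. Lgals3bp was higher in 18 °C offspring by 0.67 ± 0.17 than in 30 °C (SE, 1.59-fold, limma adjusted p = 0.352) and by 0.36 ± 0.17 than in 10 °C offspring (0.615). Rtp4, a chaperone of membrane receptors, was at log2 7.21, 7.05, 7.03, 7.38 and 7.26 in 10 °C offspring and at 7.62, 6.97, 7.36, 6.82 and 7.49 in 18 °C offspring. It was at 6.59, 7.04, 7.15, 6.70 and 6.85 in 23 °C and at 6.46, 6.78, 6.60, 7.15 and 6.45 in 30 °C offspring. The 10 °C values were the least spread, and 3 of 5 values in 30 °C offspring were at or under 6.60. Rtp4 was higher than in 30 °C offspring by 0.50 ± 0.17 in 10 °C (SE, limma adjusted p = 0.673) and by 0.57 ± 0.17 in 18 °C (0.398).

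Ifi27 had log2 values of 10.38, 9.19, 10.45, 10.46 and 10.21 in 10 °C and of 9.89, 10.22, 10.34, 9.54 and 10.12 in 18 °C offspring. In 23 °C offspring they were 10.40, 9.83, 9.99, 10.14 and 10.07, and in 30 °C offspring 10.80, 9.87, 9.98, 10.38 and 9.76. Animal 4 of the 10 °C group stood far below the rest of its group, and the difference between 18 °C and 30 °C was -0.13 ± 0.23 (SE, limma adjusted p = 0.922). Ifi35 was higher by 0.47 ± 0.19 in 18 °C than in 23 °C offspring (SE, limma adjusted p = 0.47), with its highest value, 9.25, in 18 °C animal 4. Xaf1, a partner of an apoptosis inhibitor, had means of 6.18, 6.15, 5.87 and 5.95, with both its extremes in 30 °C offspring, 7.001 in animal 4 and 4.83 in animal 5. Sp100, a protein of nuclear bodies, had means of 9.01, 9.23, 9.12 and 8.95.

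Comparison by comparison, most members had higher means in each cold group than in either warmer group, by a small median. Between 10 °C and 23 °C offspring 29 of 38 were higher, at a median of 0.169 where the median over all clusters was 0.002 and 50.4% were higher. At an unadjusted p under 0.05 were 4 members, all higher, against 11.6% of clusters, 5.73% higher and 5.91% lower. Irf7 was the 1 member whose groups did not overlap, against 1.05% of clusters that were higher and 1.4% that were lower in this way. Between 18 °C and 23 °C offspring 31 of 38 were higher, at a median of 0.124 against -0.002 over all clusters, of which 49.6% were higher. A total of 7 members were at an unadjusted p under 0.05, all higher, against 9.25% of clusters, 4.36% higher and 4.89% lower. Ifit1 and Oas2 did not overlap, against 0.77% of clusters higher and 1.04% lower.

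Against 30 °C offspring the counts were alike. Between 10 °C and 30 °C 30 of 38 members were higher, at a median of 0.190 (0.006 over all clusters, 51.1% of them higher). At an unadjusted p under 0.05 were 9 members, all higher, against 6.76% of clusters, 3.63% higher and 3.13% lower. Dtx3l was the 1 member without overlap, against 0.509% of clusters higher and 0.473% lower. Between 18 °C and 30 °C 31 of 38 were higher, at a median of 0.194 (0.003, 50.6%). Here too 9 members, all higher, were at an unadjusted p under 0.05, against 8.21% of clusters, 4.21% higher and 4% lower. Ifit1 and Irf9 did not overlap, against 0.639% of clusters higher and 0.775% lower. Without 30 °C animal 5 these medians were 0.154 with 24 higher, and 0.163 with 29 higher.

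Within the cold and within the warm pair the medians over all 38 members were smaller in size. Over the 28 members above background this did not hold for the warm pair, at a median of -0.151 with 20 lower. Over these 28, the medians against 23 °C were 0.169 for 10 °C and 0.133 for 18 °C offspring. Against 30 °C they were 0.230 and 0.227, and between 18 °C and 10 °C it was 0.055. Between 30 °C and 23 °C offspring 12 of 38 were higher and 26 lower, at a median of -0.097 (-0.006 over all clusters, 48.7% higher). None was at an unadjusted p under 0.05, against 4.84% of clusters, 2.21% higher and 2.63% lower, and none was without overlap, against 0.419% higher and 0.333% lower. Without 30 °C animal 5 the median was -0.066 with 17 higher. Between 18 °C and 10 °C 24 of 38 were higher, at a median of 0.061 (-0.001, 49.9%). Ifit1 and Lgals3bp, both higher, were the 2 members at an unadjusted p under 0.05, against 8.1% of clusters, 3.79% higher and 4.31% lower. The slope on temperature was above 0 in 8 of 38 members, against 48.9% of all clusters. At an unadjusted p under 0.05 were 10 members, all with a slope below 0, against 8.15% of clusters, 4.3% below and 3.85% above 0. The steepest was Irf7 at -0.46 ± 0.13 per 10 °C (SE, limma adjusted p = 0.444).

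**Figure D5:**
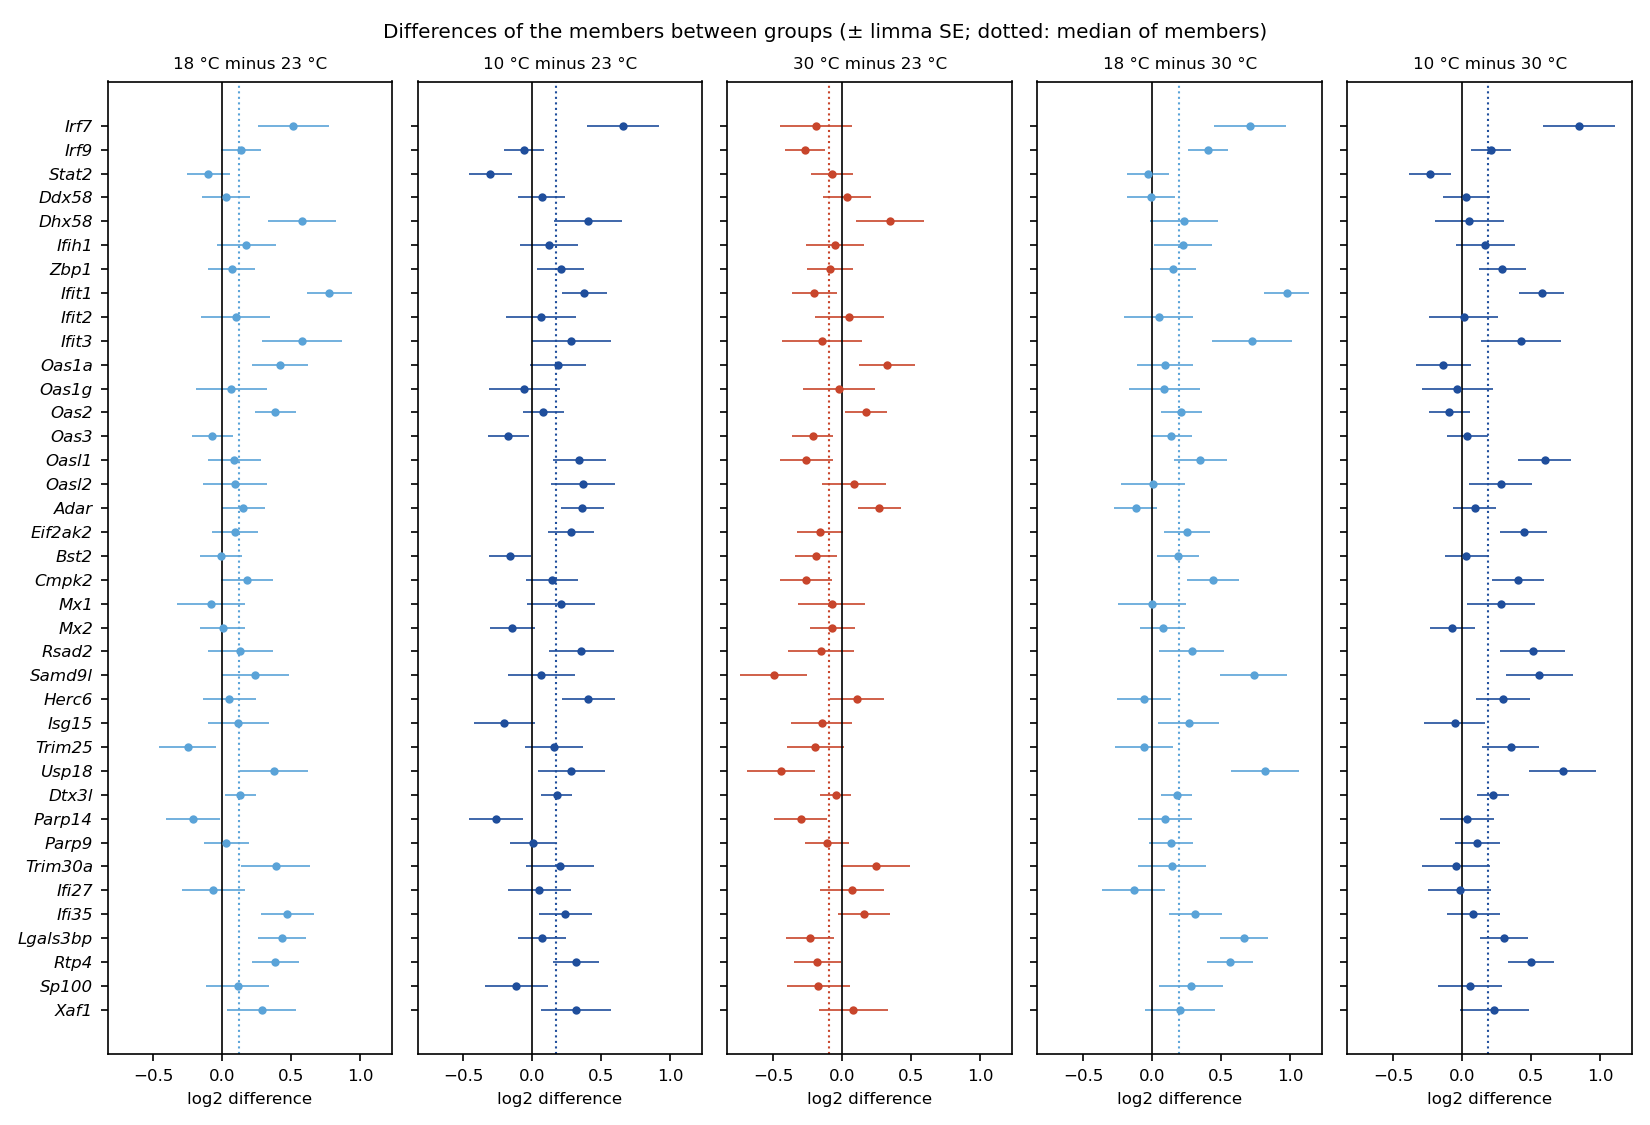
Log2 differences (x axes, ± limma SE, n = 5 per group) of the 38 members, by role from top to bottom, in 5 comparisons. Dotted lines mark the members' medians of 0.124, 0.169, -0.097, 0.194 and 0.190 from left to right, and Ifit1 at 0.98 is the largest difference shown.

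The comparisons with 23 °C share control arrays, as those with 30 °C do, but 10 °C against 30 °C and 18 °C against 23 °C have no array in common. Both differences were above 0 in 25 of 38 members (65.8%) and in 29.1% of all clusters. In the other such pair, 10 °C against 23 °C and 18 °C against 30 °C, it was 23 members (60.5%) and 26.9%. Both pairs use the same 20 arrays, so the second count is no separate repeat of the first. Taken singly, the comparisons had 30 and 31 of 38 members higher in the first pair, and 29 and 31 in the second. Joint counts of this size largely follow from those counts and are no added agreement. As members are not independent of each other, these shares carry no test. Ifit1, Ifit3, Usp18, Rtp4, Irf7 and Lgals3bp were among the members in both counts.

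Members with and without a promoter match were set side by side. Between 10 °C and 30 °C offspring the 13 with a match had a median of 0.03 with 8 higher, and the 15 without one had 0.28 with all 15 higher. Between 18 °C and 30 °C the medians were 0.18 and 0.28, with 11 of 13 and 12 of 15 higher. Against 23 °C they were 0.12 and 0.18 for 10 °C, 0.12 and 0.13 for 18 °C, and -0.15 and -0.17 for 30 °C offspring. Between 18 °C and 10 °C the order was turned, with 0.16 and 10 of 13 higher for members with a match and -0.03 and 7 of 15 without. Irf7, Samd9l and Lgals3bp had no exact match in this window and Ifit1 had 2. Of the members with a match, Oas1a, Oas1g, Oas3, Isg15 and Trim30a are not clearly above background. Between 10 °C and 30 °C offspring they differed by -0.14, -0.04, 0.04, -0.05 and -0.04. Of those without a match, Oasl1 and Ifit2 are not clearly above it, at 0.60 and 0.01. The split by match is thus also uneven in dim members, and the part of level in it was not tested.

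Upstream of the members, most interferon genes were at background and most of their receptors and kinases were above it. Of 12 interferon ligands, 11 had means under the negative control rows, Ifnb1 at 3.19 and Ifng at 3.16 among them. Ifna5, at 5.68, was the 1 ligand above them. The mean over the 12 was 3.26 to 3.33 in the 4 groups, with 0 passing limma in any comparison. Ifna4 and Ifna1 had the smallest 4-group p (limma adjusted p = 0.376 and 0.482), with means of 2.55 and 3.54. Of 9 receptor chains and kinases, 8 had a higher mean in 10 °C offspring than in controls, at a median of 0.187. In 18 °C offspring it was 4, at a median of -0.064. None of them passed limma, and 4 and 0 stood at an unadjusted p under 0.05, against 11.6% and 9.25% of all clusters. Of the ligands it was 4 of 12 in each of these comparisons, 3 of them lower. Ifnlr1, the receptor of lambda interferons, and Jak2 had the smallest 4-group p of the receptors and kinases (limma adjusted p = 0.420 and 0.572), and Ifnlr1, with a mean of 3.34, was not above the negative control rows.

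Other regulators gave no call either. Among 5 measured transcription factors, Irf2 and Irf1 had the smallest 4-group p (limma adjusted p = 0.681 and 0.730). Among 8 measured sensors and adaptors these were Tlr3 and Tbk1 (0.657 and 0.701). Among 5 negative regulators they were Pias1 and Ptpn2 (0.787 and 0.877), while Socs1 and Socs3 were at background. All 5 negative regulators, these dim ones included, had higher means in 10 °C and in 18 °C than in 30 °C offspring. Of all clusters 51.1% and 50.6% were higher. The medians of the 5 were 0.109 and 0.198. None was at an unadjusted p under 0.05, against 6.76% and 8.21% of all clusters. Against 23 °C offspring the medians were 0.009 and 0.057.

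The related interferon-inducible GTPases, which attack the vacuoles of intracellular pathogens, had larger medians than the members in each comparison of a cold with a warmer group. Their medians over 11 genes were 0.207 for 10 °C and 0.230 for 18 °C against 23 °C offspring. In each, 9 of 11 were higher, where 50.4% and 49.6% of all clusters were. Against 30 °C offspring they were 0.225 and 0.289. Igtp had the smallest 4-group p of them (limma adjusted p = 0.345). For 12 genes of the immunoproteasome and antigen processing the medians against 23 °C were 0.107 and 0.194, with 8 of 12 higher in each, and against 30 °C they were 0.088 and 0.089. Psmb9 had their smallest 4-group p (limma adjusted p = 0.388). Whether the members differ from these groups of genes was not tested.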

How the data were processed

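Liver RNA of 20 mice was measured on 1 Affymetrix array each. The authors deposited log2 values made with RMA in the Transcriptome Analysis Console, per the submitters' processing notes, whose versions are not given in the sources used here. RMA equalises the arrays' distributions, so a change shared by most genes would be removed. Of 28846 deposited rows, 6640 control rows were left out of the tests. Groups came from the sample labels. limma 3.58.1 in R 4.3.3 (lmFit, eBayes) fitted 1 mean per group over 22206 clusters and 20 arrays, two-sided, with Benjamini-Hochberg adjustment within each of 6 comparisons, the F-test and the slope, at 0.05. The fit was tested on simulated data. Intensity over background and 5 arrays per group limit the precision.

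The members, gene lists and comparisons were chosen with earlier results of these data known. All arrays were given for the 10 members with the smallest 4-group p, and for the 2 higher and 2 lower members with the smallest p in each comparison. Non-member pathway genes were named for the 2 smallest 4-group p values of their list, and cell type markers as counts. A total of 8 other settings and 20 fits without 1 array were run. All 38 members matched RefSeq by gene ID and symbol. Promoters came from RefSeq, GRCm38.p6.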

Additional observations from a re-analysis of the deposited data

Results flagged for a closer look

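Within groups of 5 arrays, a Dixon test compared the gap of the highest or lowest array with the range of its group, over 156 groups. It marked 10, where chance marks about 1 in 20, or 7.8. Animal 23 of the 23 °C group was marked in 3 genes, with Irf7 at 7.59 (others 8.09 to 8.21), Oasl2 at 4.34 (5.28 to 5.56) and Adar at 8.64 (8.29 to 8.37). In 10 °C offspring, Ifit2 was 4.40 in animal 5 (3.79 to 3.95), Dhx58 was 4.99 in animal 6 (6.03 to 6.39) and Ifi27 was 9.19 in animal 4 (10.21 to 10.46). In 18 °C offspring, Ifih1 was 10.57 in animal 3 (10.37 to 10.42) and Bst2 was 11.98 in animal 1 (12.23 to 12.33). In 30 °C offspring, Oas2 was 3.78 in animal 4 (3.26 to 3.38). The mean deviation of the members was -0.37 in 30 °C animal 5, with -0.12 to -0.02 in the other arrays of its group.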

How the results depend on the processing

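The count of members called was 0 in every comparison and setting except 18 °C against 30 °C, where it was 1, Ifit1, with clusters under the olfactory bound left out (adjusted p = 0.0442) and with those under the negative control rows left out (0.0323). With 1 array left out at a time it ranged from 0 to 1, with the smallest adjusted p between 0.025 and 0.277. In their deviations from group means, same-numbered arrays correlated between -0.1511 and 0.1105 over 11 pairs, 1 of them over 0.1. Arrays of different numbers were not correlated beside them, so these values cannot decide whether the animal numbers pair the arrays. With the number as a replicate block, 0 members were called, and the median of 18 °C against 23 °C was 0.243 instead of 0.124. The medians of 30 °C against 23 °C and of 18 °C against 10 °C were -0.027 instead of -0.097 (17 of 38 higher) and 0.111 instead of 0.061. Under this block the Irf7 difference between 10 °C and 23 °C was 0.13 instead of 0.66 (adjusted p = 0.983), that of Adar 0.66 instead of 0.36, and that of Oas1a between 30 °C and 23 °C 0.90 instead of 0.32. Trim25 reversed to 0.31 for 18 °C against 23 °C (adjusted p = 0.999). No other array shares the number of 23 °C animals 15, 17 and 23 or of 18 °C animal 3. The block fits such arrays exactly, so under it every difference from 23 °C offspring rests on control animals 1 and 2. Ifi27 between 18 °C and 30 °C ranged from -0.23 to 0.03 with 1 array left out, and reversed without 30 °C animal 4 (adjusted p = 0.99). With 1 array left out the medians kept their sign, at 0.099 to 0.187 (10 °C against 23 °C), 0.095 to 0.184 (18 °C against 23 °C), -0.129 to -0.064 (30 °C against 23 °C), 0.135 to 0.224 (10 °C against 30 °C), 0.162 to 0.225 (18 °C against 30 °C) and 0.012 to 0.13 (18 °C against 10 °C). The median of 10 °C against 23 °C was lowest with the background rows as a covariate, at 0.089. The 10 members not clearly above background have only a bound on their level.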
